A study of Mus musculus with 46 samples.

Results

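The genes followed here are 10 mouse genes whose RNA varied strongly between single microglia libraries of a diet study: Ifi202b, Slamf8, Slamf9, Olfml2b, Igsf8, F11r, H2-Ob, Gnb4, Trim12a and Cyp2r1. They were named as a list because earlier work on the same counts had shown on/off levels, or large differences between samples of 1 group, for genes lying near each other on distal chromosome 1 and on chromosome 17. Spread between libraries and the differences of HAMSAB from control and from zero fiber in AD mice therefore chose the genes. Those values are given as descriptions and not as tests. The 10 genes are 10 of 54134 gene symbols in the count table, and all 10 were among the 12121 genes that passed the filter on low counts.

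The study measured RNA by sequencing in microglia, the resident macrophages of the brain, in 46 libraries. The mice were AD (5xFAD, a transgenic model of Alzheimer's disease with transgenes under the neuronal Thy1 promoter, 24 libraries) or WT (22 libraries). Mice ate HAMSAB, a resistant maize starch carrying acetate and butyrate, a zero fiber diet, or a control diet. Diet, genotype and sex (F or M) gave 12 groups of 4 libraries, except zero_fiber_WT_M with 2. HAMSAB AD, zero fiber AD, control AD, HAMSAB WT and control WT thus had 8 libraries each and zero fiber WT had 6. The labels give no age, time on the diet, litter, strain background or isolation method, and they do not state that libraries came from separate mice. A p-value here therefore measures spread among these libraries, which may be technical. Replicate numbers only name libraries.

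Neighbouring genes on a chromosome tend to be inherited together, so animals that are not genetically uniform can differ over a whole block of genes. Several of the genes described here are known as polymorphic between inbred mouse strains, among them Ifi202b, which encodes an interferon-inducible protein that binds cytosolic DNA, and the genes of the major histocompatibility complex (MHC) on chromosome 17. Slamf8 and Slamf9 encode receptors of the SLAM family, which tune activation of immune cells. No sequence variant was read here, and inheritance as the source of any pattern below was not tested.

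Library totals were 52114 to 6950429 counts (median 2344837.5). The lowest, zero_fiber_AD_M replicate 2, is so shallow that 1 read of a gene gives 15.5 CPM (counts scaled by the TMM-adjusted library size). Likeness between genes is therefore given over the other 45 libraries. Xist, the X-inactivation RNA, was at 0.213 CPM in the library labelled zero_fiber_AD_F replicate 1, against 654 to 1150 CPM in the other F libraries. Its Y-linked Ddx3y was at 142 CPM, within the 94.0 to 169 CPM of M libraries, so its sex label is in doubt. All 8 microglial markers were detected in each diet and genotype, with summed levels of 23800 to 38300 CPM over the 46 libraries. Markers of B cells summed to 43.1 to 81.2 CPM, of dendritic cells or monocytes to 0 to 18.2 CPM, of perivascular macrophages to 16.1 to 161 CPM and of T or NK cells to at most 1.0 CPM. Erythroid markers summed to 1.7 to 684 CPM and choroid plexus markers to 20.5 to 312 CPM. Endothelial markers summed to 0 to 120 CPM and oligodendrocyte markers to 30.9 to 107 CPM. Neuron, astrocyte and neutrophil markers summed to at most 29.4, 25.3 and 11.8 CPM.

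Of the genes, 6 lie within a few megabases of distal chromosome 1 (GENCODE M21 coordinates on GRCm38). In order they are Olfml2b (chr1:170644532-170682789, plus strand), F11r (chr1:171437535-171464603, plus), Igsf8 (chr1:172261641-172319841, plus), Slamf9 (chr1:172475358-172478575, plus), Slamf8 (chr1:172581758-172590568, minus) and Ifi202b (chr1:173962568-173982744, minus). The gap between Olfml2b and Ifi202b is 3.28 Mb. H2-Ob lies in the MHC (chr17:34238903-34254414, plus) and Gnb4 on chromosome 3 (chr3:32580332-32616585, minus). Trim12a (chr7:104299894-104315466, minus) and Cyp2r1 (chr7:114549682-114562972, minus) share chromosome 7 but are 10.2 Mb apart. With the strand setting unknown, reads of a gene cannot be told apart from those of a gene that overlaps it. Trim12a overlaps Gm15133, which was at 0 to 2.47 CPM with r of 0.11 to Trim12a over 45 libraries. H2-DMa, H2-Oa, H2-T23, Umodl1, Rps2-ps9, Pea15a, Spry1, Trim12c and Trim30a, named below on the same chromosomes, also overlap other annotated genes.

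For each gene the libraries were sorted by log2(CPM + 0.5), and the widest step that left at least 3 libraries on each side was taken. Every gene has such a step, and 1 gene each of chromosomes 3, 7, 17 and 1 is followed through it below. Gnb4, a beta subunit of heterotrimeric G proteins, had 9 libraries at 23.7 to 43.2 CPM and 37 at 0 to 3.69 CPM. Trim12a, a tripartite-motif gene of the Trim5 and Trim30 cluster, whose family includes restriction factors of retroviruses, had 13 libraries at 15.5 to 72.7 CPM and 33 at 0.576 to 5.92 CPM. The 15.5 CPM is the single read of the shallowest library. H2-Ob, the beta chain of the H2-O molecule that restrains peptide loading of MHC class II, had 18 libraries at 73.2 to 188 CPM and 28 at 15.7 to 46 CPM. Igsf8, an immunoglobulin-domain partner of the tetraspanins Cd9 and Cd81, had 8 libraries at 86.7 to 134 CPM and 38 at 33.2 to 74.0 CPM.

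These steps can be set beside those of every tested gene. Only 0.00825% of the 12121 genes had a wider step than Gnb4's 2.53 on the log2 scale, and none of the 2278 genes with a mean within 1 log2 unit of its own did. Trim12a's step of 1.31 was exceeded by 28 of 2960 genes of like mean, or 0.946%, and H2-Ob's step of 0.66 by 8 of 4095, or 0.195%. Igsf8's step of 0.23 was exceeded by 260 of 3933 genes of like mean, or 6.61%, so for Igsf8 the step alone does not stand far from other genes. The step of Slamf8 was wider (0.48, exceeded by 2.62% of genes of like mean), and that of Olfml2b was 0.23 (9.1%). Steps of Ifi202b (0.84), Slamf9 (0.15), F11r (0.07) and Cyp2r1 (0.59) were exceeded by 22.4%, 31.6%, 68.4% and 42.8% of genes of like mean. The spread within groups gave a like order, as the biological coefficient of variation of edgeR divided by its trend at the same level. It was 4.28 for Trim12a, 4.10 for Gnb4, 3.05 for H2-Ob, 2.35 for Ifi202b, 1.73 for Igsf8 and 1.72 for Slamf8. It was 1.36 for Cyp2r1, 1.25 for Olfml2b, 1.02 for Slamf9 and 0.835 for F11r. Spread between libraries is what the genes were named for, so these ranks describe them and support nothing.

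**Figure D1:**
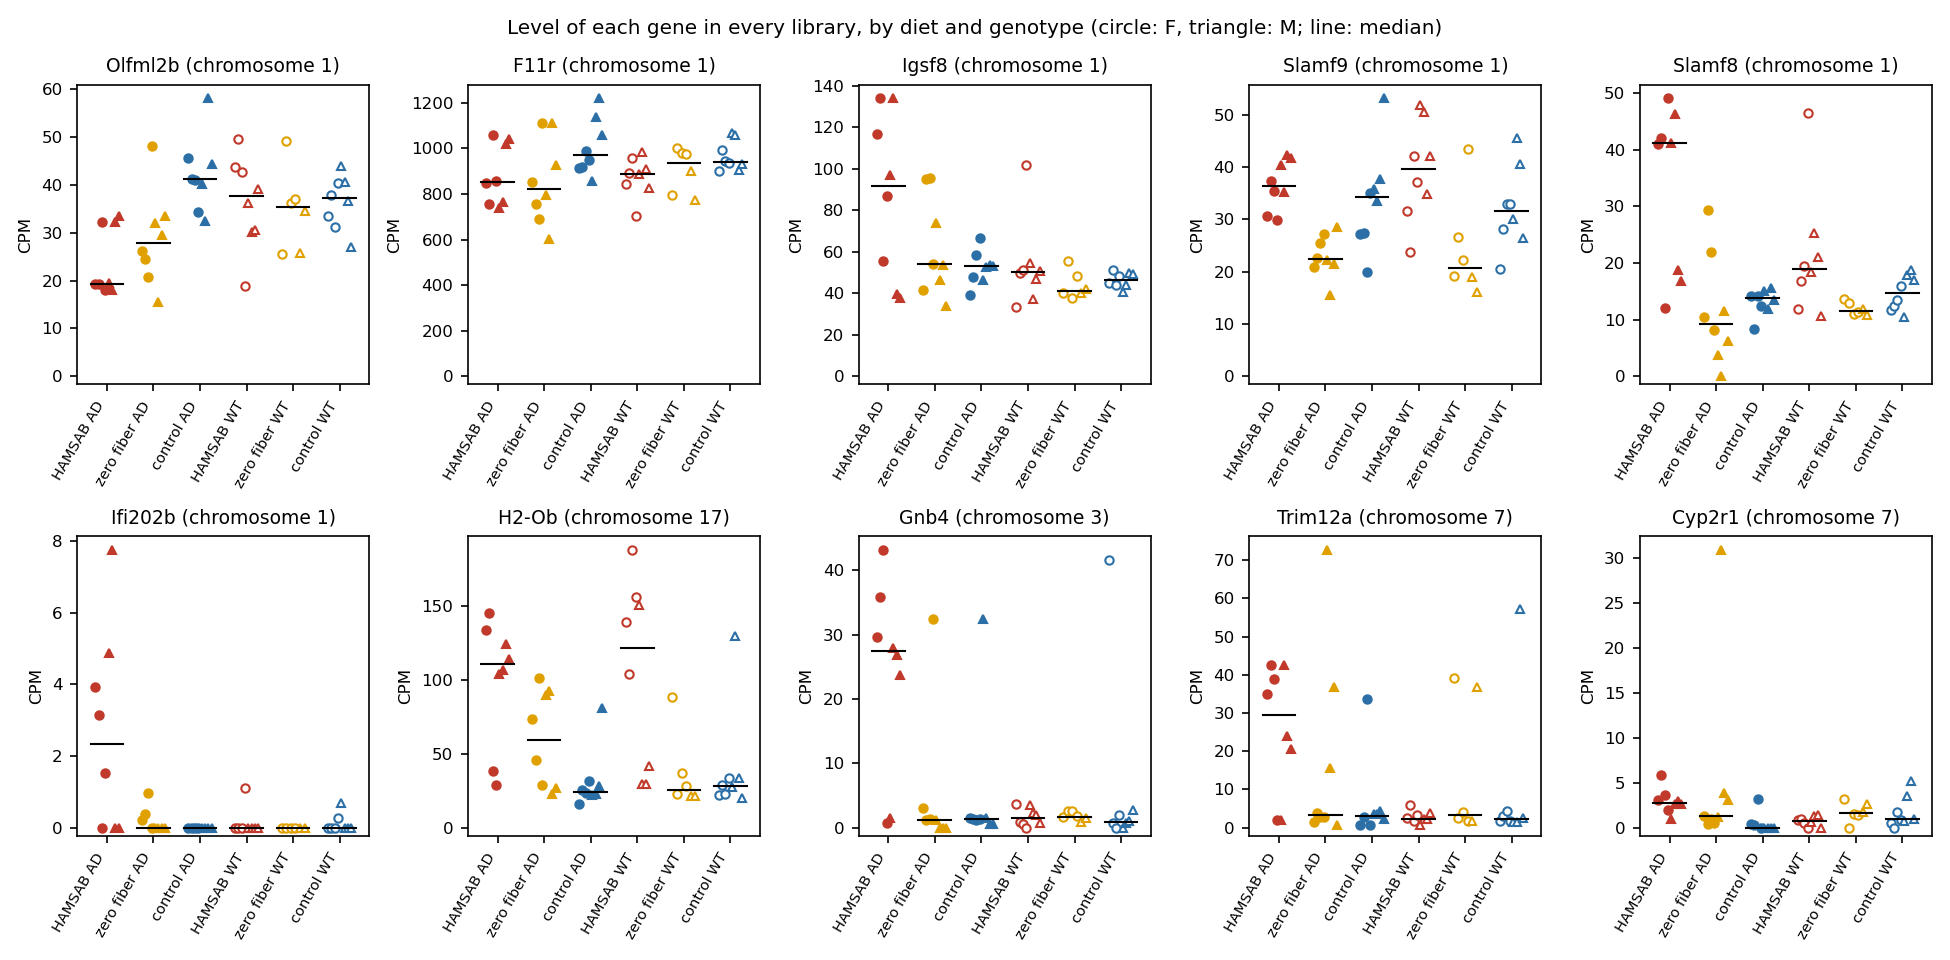
CPM (vertical axes, linear) of the 10 genes in each of 46 libraries by diet and genotype, with HAMSAB in red, zero fiber in yellow and control in blue, AD filled and WT open, F as circles, M as triangles, and the group median as a line. Within HAMSAB AD, Gnb4 and Trim12a each have 6 libraries far above the other 2, and Igsf8 has 5 libraries from 86.7 to 134 CPM and 3 from 37.6 to 55.6 CPM.

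The reference promoters of 4 genes, Ifi202b, Slamf8, H2-Ob and Trim12a, are shown here. No fixed rule gives this set, since Igsf8 and Olfml2b also moved with Ifi202b. Gnb4, with the widest step, had no entry. The windows of Igsf8, Olfml2b and Slamf9 held none of the motifs described below, while all 4 promoters shown hold at least 1. Each runs from 250 bases before to 50 bases after the RefSeq gene start (GRCm38.p6, the C57BL/6J reference, 5′ to 3′ on the gene's strand), and 9 of the 10 genes had an entry. They are the reference sequence and not that of the mice studied. Capitals mark matches, on either strand, to GAAA followed by 2 bases of any kind and GAAA (the core of the interferon-stimulated response element), to TTCNNNGAA (the gamma-activated site), and to CCAAT and TATAAA. The windows are chr1:173982795-173983094 (minus) for Ifi202b, chr1:172590519-172590818 (minus) for Slamf8, chr17:34238655-34238954 (plus) for H2-Ob and chr7:104315446-104315745 (minus) for Trim12a.
Ifi202b: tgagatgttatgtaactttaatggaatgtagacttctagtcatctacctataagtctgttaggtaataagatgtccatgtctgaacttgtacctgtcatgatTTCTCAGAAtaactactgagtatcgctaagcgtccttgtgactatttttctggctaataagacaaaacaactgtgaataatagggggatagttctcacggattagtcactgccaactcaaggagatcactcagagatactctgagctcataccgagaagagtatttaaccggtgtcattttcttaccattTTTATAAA
Slamf8: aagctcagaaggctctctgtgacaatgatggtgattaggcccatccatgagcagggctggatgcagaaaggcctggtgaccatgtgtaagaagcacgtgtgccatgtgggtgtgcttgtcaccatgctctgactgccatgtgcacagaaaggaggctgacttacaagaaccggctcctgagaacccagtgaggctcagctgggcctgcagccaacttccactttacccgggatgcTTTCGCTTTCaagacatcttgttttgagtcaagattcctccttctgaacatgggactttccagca
H2-Ob: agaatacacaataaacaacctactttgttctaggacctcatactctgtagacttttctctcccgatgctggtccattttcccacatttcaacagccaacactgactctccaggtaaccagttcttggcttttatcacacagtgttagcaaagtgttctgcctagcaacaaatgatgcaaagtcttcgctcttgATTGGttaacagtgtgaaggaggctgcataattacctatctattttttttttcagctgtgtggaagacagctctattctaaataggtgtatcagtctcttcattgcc
Trim12a: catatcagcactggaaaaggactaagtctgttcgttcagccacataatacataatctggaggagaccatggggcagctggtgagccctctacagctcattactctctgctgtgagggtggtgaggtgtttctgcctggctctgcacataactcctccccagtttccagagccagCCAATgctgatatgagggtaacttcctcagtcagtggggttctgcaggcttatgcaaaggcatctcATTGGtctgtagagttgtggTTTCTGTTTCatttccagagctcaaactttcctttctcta
The interferon element core was found in 2 of the 9 promoters, Slamf8 (from base -15 relative to the start) and Trim12a (from base 11), and in 3.44% of all 32851 RefSeq promoter windows. The gamma-activated site was found in Ifi202b alone among the 9 (from base -148), and in 8.30% of all windows. CCAAT was found in 4 of the 9 (H2-Ob, Trim12a, F11r and Cyp2r1) and in 37.4% of all windows. TATAAA was found in Ifi202b, where 2 matches on opposite strands overlap, and in 13.6% of all windows. A match is a description of these letters only.

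On chromosome 1, the 8 libraries highest in Igsf8 were also the 8 lowest in Olfml2b among the 45, and they held most reads of Ifi202b and the 6 highest levels of Slamf8. The 8 libraries above the Igsf8 step were HAMSAB_AD_F replicates 1, 2 and 4 (117, 134 and 86.7 CPM), HAMSAB_AD_M replicates 1 and 2 (97.2 and 134 CPM), zero_fiber_AD_F replicates 2 and 3 (95.1 and 95.5 CPM) and HAMSAB_WT_F replicate 4 (102 CPM). None of the 16 control libraries or of the zero fiber WT libraries was among them. The 3 other HAMSAB AD libraries had 55.6, 39.8 and 37.6 CPM of Igsf8, which lay among or below the 39.3 to 66.6 CPM of the control AD libraries. HAMSAB AD as a whole thus spanned 37.6 to 134 CPM with a median of 91.9 CPM, against 34 to 95.5 CPM and a median of 54.0 CPM in zero fiber AD, and 39.3 to 66.6 CPM and a median of 52.9 CPM in control AD.

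Ifi202b, whose protein binds cytosolic double-stranded DNA and restrains the Aim2 inflammasome, was nearly absent from most libraries. It had 81 reads in all. The 8 libraries above the Igsf8 step held 78 of them, in counts of 9, 8, 4, 10, 41, 1, 3 and 2 in the order just given. So each of the 8 had at least 1 read, but only 4 of them lay above the widest step of Ifi202b itself (3.15 to 7.75 CPM), and zero_fiber_AD_F replicate 2, at 0.381 CPM, lay below control_WT_M replicate 1, at 0.699 CPM. Among the others, 3 libraries, the one labelled zero_fiber_AD_F replicate 1, control_WT_F replicate 4 and control_WT_M replicate 1, had 1 read each, and 35 libraries had none. Pooled over libraries, HAMSAB AD stood at 3.42 CPM, at least 22.5-fold higher than control AD, where no read was found and the limit of 3 counts over the group is 0.152 CPM. Against zero fiber AD, with 5 reads or 0.286 CPM, the pooled ratio was 11.9. The library HAMSAB_AD_M replicate 2 alone gave 41 of the 72 HAMSAB AD reads, and without it HAMSAB AD stood at 1.92 CPM, at least 12.6-fold higher than control AD and 6.72 times the level of zero fiber AD. These pooled values divide by the reads of tested genes, without TMM factors. Ifi202b belongs to a family of close copies, and reads matching several genes may have been lost in counting.

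Olfml2b, an extracellular matrix protein with an olfactomedin domain, ran the other way. Its 8 lowest libraries, apart from the shallowest one, were exactly the 8 above the Igsf8 step, at 18 to 24.4 CPM, and the next library was at 25.5 CPM. HAMSAB AD had 18 to 33.5 CPM (median 19.4 CPM), zero fiber AD 15.5 to 48.2 CPM (median 27.9 CPM) and control AD 32.5 to 58.1 CPM (median 41.1 CPM). The 5 HAMSAB AD libraries above the Igsf8 step had Olfml2b at 18 to 19.4 CPM, and the other 3 had 32.2, 32.2 and 33.5 CPM. Both sets are in the same diet, genotype and sexes. Their Olfml2b levels do not overlap, but the sets were cut on Igsf8, and both genes were chosen for spread between libraries. How many other tested genes part at the same cut was not counted.

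Slamf8, a SLAM family receptor of myeloid cells, was at 41 to 49.1 CPM in 6 libraries and at 29.3 CPM or less in the other 40. All 6 were above the Igsf8 step, namely the 5 HAMSAB AD libraries and HAMSAB_WT_F replicate 4. The remaining 2 libraries above that step, zero_fiber_AD_F replicates 2 and 3, had 29.3 and 22 CPM of Slamf8, against 10.4 and 8.13 CPM in the other libraries labelled zero_fiber_AD_F. Replicate 3 lay below HAMSAB_WT_M replicate 2, at 25.3 CPM. HAMSAB AD ranged from 12 to 49.1 CPM (median 41.2 CPM), zero fiber AD from 0 to 29.3 CPM (median 9.28 CPM) and control AD from 8.42 to 15.6 CPM (median 13.8 CPM). The 3 HAMSAB AD libraries below the Igsf8 step had 12, 18.7 and 16.9 CPM, so 2 of them still lay above every control AD library.

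F11r, the junctional adhesion molecule JAM-A, varied less, between 603 and 1220 CPM. Its 8 lowest libraries of the 45 shared 6 with the 8 above the Igsf8 step, which is 75.0% of each set. HAMSAB_AD_F replicates 1 and 4, with 848 and 858 CPM, were not among the lowest. HAMSAB AD had a median of 853 CPM, zero fiber AD 824 CPM and control AD 971 CPM, and the 3 groups overlapped.

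Among the WT libraries, 1 stood apart in these genes. Igsf8 had 33.2 to 102 CPM (median 50.1 CPM) in HAMSAB WT, 37.7 to 55.6 CPM (median 41 CPM) in zero fiber WT and 40.5 to 51.2 CPM (median 46.6 CPM) in control WT. The value of 102 CPM, in HAMSAB_WT_F replicate 4, stood above the next HAMSAB WT library, at 54.8 CPM. The same library had 18.9 CPM of Olfml2b, where the other HAMSAB WT libraries had 30.1 to 49.6 CPM, and 46.6 CPM of Slamf8, where they had 10.7 to 25.3 CPM. Its F11r, at 704 CPM, was also the lowest of its group, where the others had 826 to 985 CPM.

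Slamf9, a SLAM family receptor related to Slamf8, did not share the pattern, although it lies between Igsf8 and Slamf8. Its 8 highest libraries included none of the 8 above the Igsf8 step. HAMSAB AD had 29.9 to 42.2 CPM (median 36.4 CPM), zero fiber AD 15.5 to 28.5 CPM (median 22.3 CPM) and control AD 19.9 to 53.1 CPM (median 34.3 CPM). The HAMSAB AD and zero fiber AD libraries did not overlap, in a comparison that chose the genes and had an adjusted p (edgeR) of 0.0798. How many other tested genes separate these groups in the same way was not counted. The lowest zero fiber AD value, 15.5 CPM, is the level of 1 read in the shallowest library. Of its variance in log2(CPM + 0.5), 63.3% lay between the 12 groups, against a median of 27.1% over all tested genes. For the other 9 genes that share ran from 25.4% for F11r to 56.7% for Cyp2r1, with 32% for Trim12a, 37.7% for Igsf8, 45% for Gnb4 and 55.3% for H2-Ob.

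**Figure D2:**
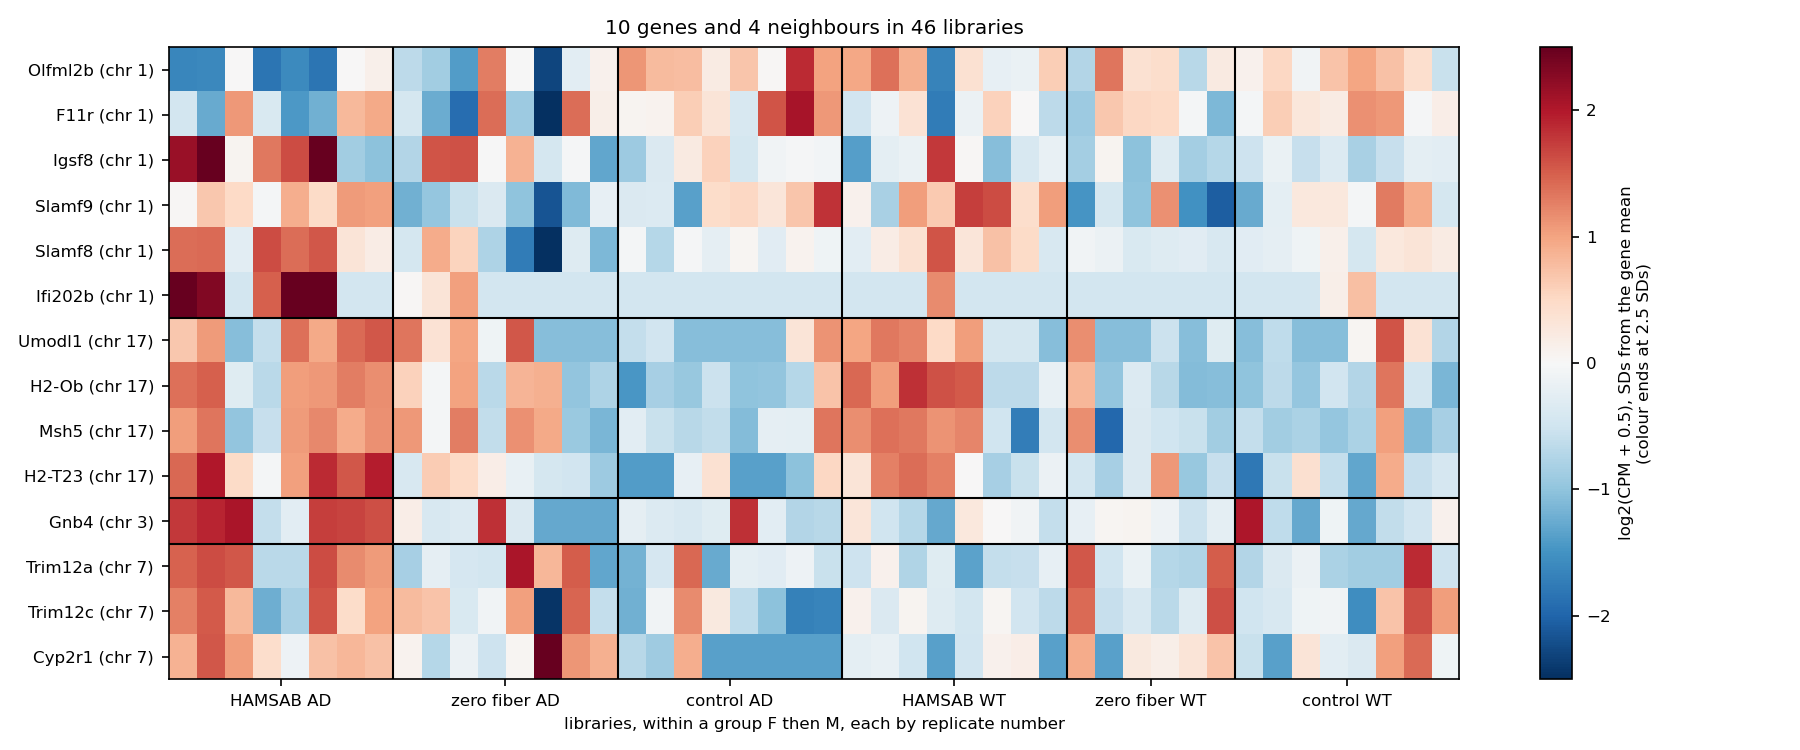
Level of the 10 genes and of 4 neighbours (Umodl1, Msh5, H2-T23 and Trim12c) in 46 libraries, coloured by SDs of log2(CPM + 0.5) from the gene's mean, with columns grouped by diet and genotype and rows by chromosome. The 8 libraries high in Igsf8 are low in Olfml2b and hold 78 of 81 Ifi202b reads, and H2-Ob and Msh5 share their 18 high libraries, 5 of which are among the 9 high in Gnb4.

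Correlations over the 45 libraries put numbers on these shared levels. They are descriptions over libraries that share their groups, and the libraries fall into separate clusters. Igsf8 and Ifi202b had r = 0.81 (rho = 0.53), Olfml2b and Ifi202b r = -0.73 (rho = -0.57), Slamf8 and Ifi202b r = 0.73 (rho = 0.51), and Igsf8 and Olfml2b r = -0.65 (rho = -0.31). F11r and Olfml2b had r = 0.65 (rho = 0.53). Slamf9 had r of 0.08 to both Igsf8 and Olfml2b. Within the clusters, r of Igsf8 and Olfml2b was -0.32 over the 8 libraries above the Igsf8 step and 0.19 over the 37 below it. The cut on Igsf8 narrows its range in each cluster, so a weaker r of Igsf8 there is partly built in. For Slamf8 and Olfml2b, r was -0.72 above and 0.04 below, against -0.63 over all 45. Slamf8 and Slamf9 had r of 0.71 above and 0.48 below. After subtraction of each group's mean, r over the 45 libraries was 0.77 for Igsf8 and Ifi202b and -0.57 for Igsf8 and Olfml2b. For Slamf8 and Slamf9 it was 0.01, against 0.34 before subtraction.

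Pairs on the same chromosome were more alike than pairs on different chromosomes. Over the 16 pairs on 1 chromosome the median absolute r was 0.56, and 11 reached 0.4. Over the 29 pairs on different chromosomes the median was 0.20, and 2 reached 0.4, both H2-Ob with a chromosome 1 gene (r = 0.41 with Ifi202b and 0.41 with Slamf8). The genes were named partly for lying near each other, so this contrast is not independent of how they were chosen.

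Other genes of the chromosome 1 interval mostly did not follow. Of the 71 other tested genes within 5 Mb of Igsf8, 1 had an absolute r of at least 0.6 and 6 (8.45%) of at least 0.4, against 64 of 12040 (0.532%) elsewhere. The closest was Pea15a, a death-effector-domain phosphoprotein, 0.0649 Mb from Igsf8 with r = 0.60 (rho = 0.45). Its 8 highest libraries shared 5 with the 8 above the Igsf8 step. Cd84, a SLAM family receptor 0.422 Mb away, had r = -0.52. Around Ifi202b, 10 of 72 genes (13.9%) reached 0.4, against 0.249% elsewhere. Likeness to Slamf8 turned on the shallowest library, where it had no read. Over all 46 libraries 2010 of 12042 genes elsewhere (16.7%) had an absolute r of at least 0.6 to it, and over 45 libraries 6 did.

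On chromosome 17, H2-Ob shared its high libraries with a gene known from meiosis. The 18 libraries above its step were HAMSAB_AD_F replicates 1 and 2 (134 and 145 CPM), all 4 HAMSAB_AD_M (104 to 124 CPM), the one labelled zero_fiber_AD_F replicate 1 and zero_fiber_AD_F replicate 3 (73.2 and 101 CPM), zero_fiber_AD_M replicates 1 and 2 (90.0 and 92.7 CPM), control_AD_M replicate 4 (81.1 CPM), all 4 HAMSAB_WT_F (104 to 188 CPM), HAMSAB_WT_M replicate 1 (151 CPM), zero_fiber_WT_F replicate 1 (88.2 CPM) and control_WT_M replicate 2 (130 CPM). Each diet and genotype held libraries on both sides of the step, as did both sexes (9 F and 9 M above). Above it were 6 of 8 HAMSAB AD, 4 of 8 zero fiber AD, 1 of 8 control AD, 5 of 8 HAMSAB WT, 1 of 6 zero fiber WT and 1 of 8 control WT libraries. The value of zero_fiber_AD_M replicate 2 rests on 6 reads.

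Msh5, a MutS homologue of meiotic recombination 0.79 Mb from H2-Ob, had 18 libraries at 45.7 to 83.3 CPM and 28 at 0.501 to 12.2 CPM. The 18 were the same libraries as those of H2-Ob, and the 2 genes had r = 0.90 (rho = 0.73). Umodl1, a uromodulin-like gene 3.28 Mb away on the other side, had r = 0.87 (rho = 0.74). Its 17 highest libraries, at 2.78 to 11.4 CPM, were all among the 18, and the missing one was the shallowest library, with no Umodl1 read. H2-T23, which encodes the nonclassical class I molecule Qa-1, had r = 0.77 (rho = 0.78) 1.79 Mb away, and 13 of its 18 highest libraries were shared. Negative r to H2-Ob was found for H2-DMa, the alpha chain of the class II peptide exchanger (-0.68), H2-Oa, the alpha chain that pairs with H2-Ob (-0.66), and B3galt4, a galactosyltransferase of ganglioside synthesis (-0.65). Among the 150 other tested genes within 5 Mb of H2-Ob, 7 (4.67%) had an absolute r of at least 0.6, against 6 of 11961 (0.0502%) elsewhere. These 6 include the pseudogene Rps2-ps9, on the same chromosome 6.45 Mb away (r = 0.69, rho = 0.67).

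H2-Ob is known as a gene of B cells and some dendritic cells. B cell markers summed to 43.1 to 78.6 CPM in libraries above the H2-Ob step and to 46.2 to 81.2 CPM in those below it. Dendritic cell or monocyte markers summed to 0 to 18.2 CPM above and 2.74 to 16.8 CPM below. The ranges overlap almost wholly in both lists. The B cell sum is nearly all Cd79b, at 43.1 to 77.3 CPM above and 46.2 to 81.2 CPM below. The B cell markers Cd79a, Ms4a1 and Pax5 had 4, 4 and 6 reads over all 46 libraries, with at most 0.873 CPM above the step and 0.786 CPM below it. In bulk RNA, fewer cells of a type and less RNA per cell cannot be told apart.

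**Figure D3:**
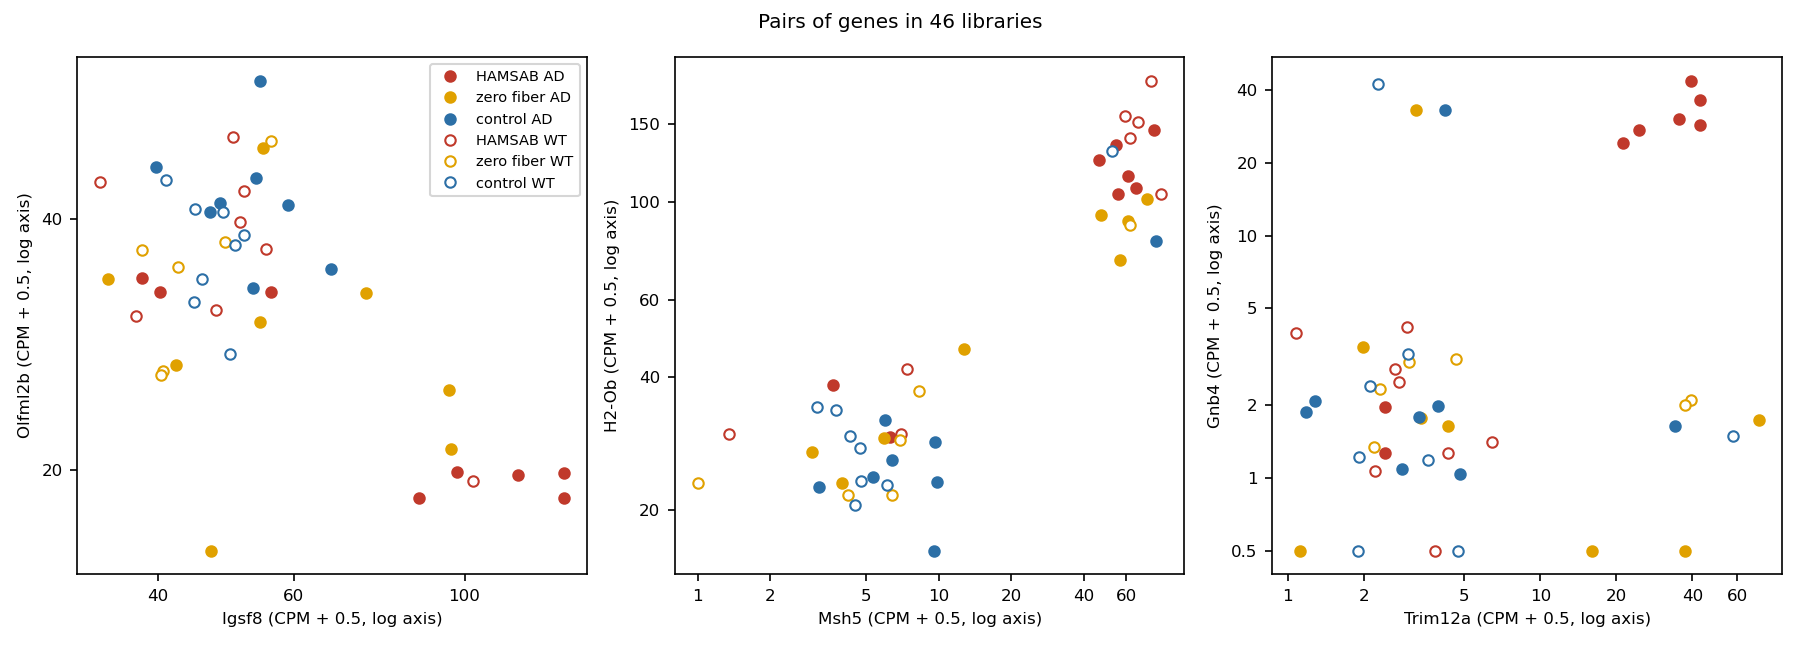
Levels in 46 libraries for Igsf8 against Olfml2b, Msh5 against H2-Ob and Trim12a against Gnb4 (CPM + 0.5, log axes), with HAMSAB in red, zero fiber in yellow, control in blue, AD filled and WT open. The 18 libraries high in Msh5 are the 18 high in H2-Ob with no library in between, while Trim12a and Gnb4 are high together in 6 HAMSAB AD libraries and apart in 10 others.

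On chromosome 3, Gnb4 was above its step in 6 HAMSAB AD libraries and in 3 single libraries of other groups. HAMSAB_AD_F replicates 1, 2 and 3 had 29.7, 35.8 and 43.2 CPM, and HAMSAB_AD_M replicates 2, 3 and 4 had 28, 26.9 and 23.7 CPM. The other HAMSAB AD libraries, F replicate 4 and M replicate 1, had 0.767 and 1.46 CPM. The 3 single libraries were zero_fiber_AD_F replicate 4 (32.5 CPM), control_AD_M replicate 1 (32.5 CPM) and control_WT_F replicate 1 (41.6 CPM). Their levels lay within the range of the 6 HAMSAB AD libraries, and no library lay between 3.69 and 23.7 CPM. No HAMSAB WT library was above the step (0 to 3.69 CPM). The gene most like it over 45 libraries was Spry1, an inhibitor of receptor tyrosine kinase signalling on the same chromosome 5.06 Mb away (r = 0.63, rho = 0.50). None of the 38 other tested genes within 5 Mb of Gnb4 had an absolute r of 0.6, and 1 of 12073 elsewhere did. That 1 gene was Spry1, just outside the window.

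On chromosome 7, Trim12a was above its step in 6 HAMSAB AD libraries (20.7 to 42.5 CPM) and in 7 others. These were zero_fiber_AD_M replicates 1, 2 and 3 (72.7, 15.5 and 36.8 CPM), control_AD_F replicate 3 (33.6 CPM), zero_fiber_WT_F replicate 1 (39.1 CPM), zero_fiber_WT_M replicate 2 (36.8 CPM) and control_WT_M replicate 3 (57.3 CPM). No HAMSAB WT library was above it (0.576 to 5.92 CPM). Trim12c, the neighbouring copy 0.0389 Mb away, had r = 0.74 (rho = 0.55), its 8 highest libraries (15.9 to 23.9 CPM) were all above the Trim12a step, and 11 of its 13 highest were. Both are near-identical members of 1 cluster, so reads may have been split or dropped between them. Trim30a, also of the cluster, had r = 0.51.

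Cyp2r1, the main vitamin D 25-hydroxylase, had only 182 reads over 46 libraries. HAMSAB AD had 0.972 to 5.91 CPM (median 2.79 CPM), zero fiber AD 0.381 to 30.9 CPM (median 1.25 CPM) and control AD 0 to 3.13 CPM (median 0 CPM), where 5 of 8 libraries had no read. The 30.9 CPM are 2 reads of the shallowest library. Its r to Trim12a, 10.2 Mb away, was 0.59 (rho = 0.38), and the gene most like it was Trim12c (r = 0.68, rho = 0.63). All 13 libraries above the Trim12a step had at least 1 read of Cyp2r1, as did 24 of the other 33.

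The 6 HAMSAB AD libraries above the Gnb4 step were the 6 above the Trim12a step, although the genes lie on different chromosomes. They are 66.7% of the 9 Gnb4 libraries and 46.2% of the 13 Trim12a libraries, and outside HAMSAB AD no library was above both. H2-Ob and Igsf8 shared 6 libraries (33.3% of the 18 and 75.0% of the 8), and H2-Ob and Trim12a shared 8 (44.4% of the 18 and 61.5% of the 13). Over 4 genes on 4 chromosomes (Igsf8, H2-Ob, Gnb4 and Trim12a), 3 HAMSAB AD libraries were above all 4 steps, namely F replicates 1 and 2 and M replicate 2. No gene of the 4 was above its step in 18 libraries. At least 1 gene was above its step in 8 of 8 HAMSAB AD, 7 of 8 zero fiber AD, 3 of 8 control AD, 5 of 8 HAMSAB WT, 2 of 6 zero fiber WT and 3 of 8 control WT libraries. The 6 libraries above the steps of both Gnb4 and Trim12a have the title numbers 2857, 2858, 2859, 2861, 2965 and 2966. The labels do not say whether close numbers mark a litter, cage or day, and shared origin could not be told apart from diet and genotype in these 6.

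**Figure D4:**
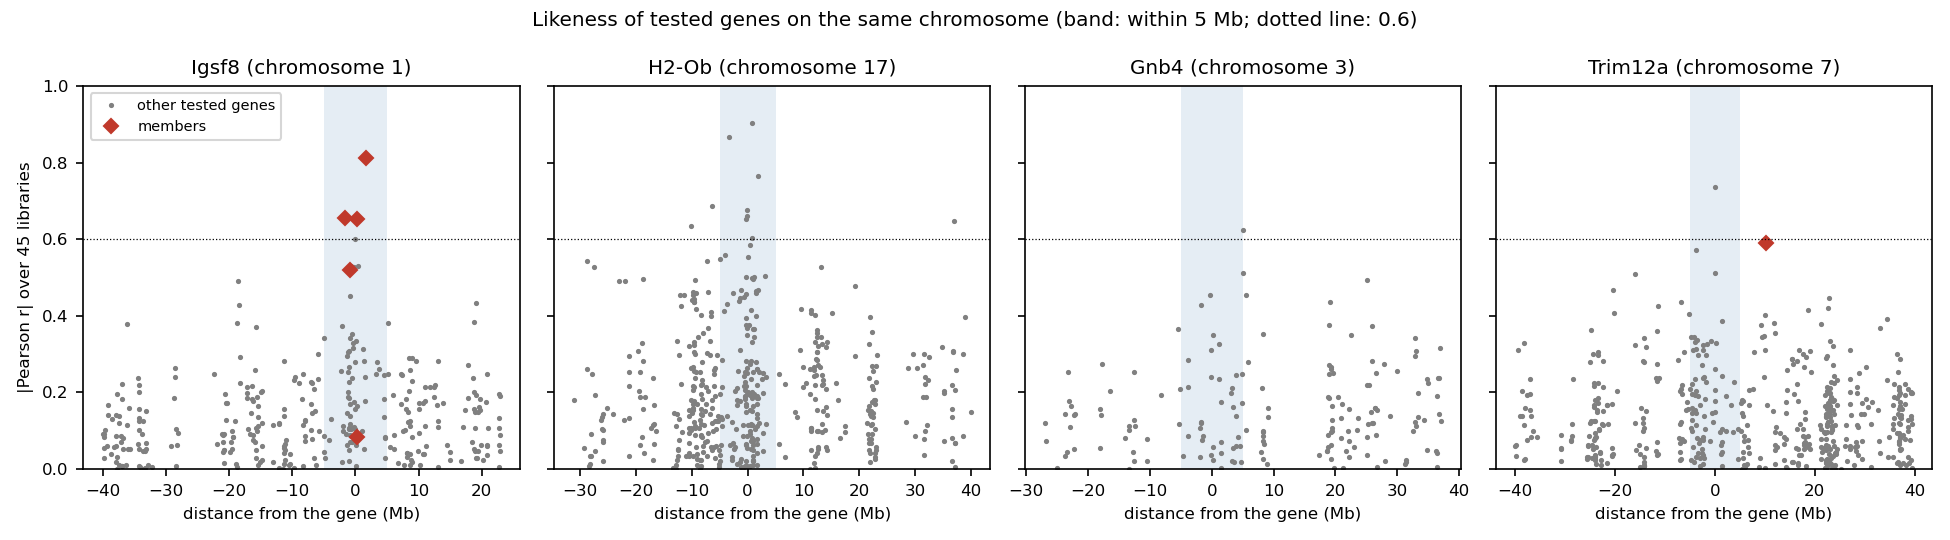
Absolute Pearson r over 45 libraries (vertical axis) between Igsf8, H2-Ob, Gnb4 or Trim12a and every tested gene up to 40 Mb away on its chromosome (horizontal axis, distance in Mb), with the 10 genes as red diamonds, others as grey dots and the window of 5 Mb shaded. The highest values for Igsf8 and H2-Ob lie inside the window, up to 0.81 for Ifi202b and 0.90 for Msh5, and Slamf9 lies at 0.08.

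Differences between diets and genotypes were taken from 1 edgeR fit over all 46 libraries, and a gene was called at a Benjamini-Hochberg adjusted p under 0.05 over 12121 genes. HAMSAB against control in AD, a contrast that chose the genes, called 5 of the 10, where 0.0743% of all tested genes were called, 0.066% higher and 0.00825% lower. The log2 fold changes (± SE) were 1.37 ± 0.26 for Slamf8, 1.73 ± 0.38 for H2-Ob, 3.63 ± 0.78 for Cyp2r1 and -0.84 ± 0.17 for Olfml2b. Ifi202b was the other, and its fold has the bound given above. Gnb4 had 2.67 ± 0.71, Trim12a 2.10 ± 0.69, Igsf8 0.76 ± 0.21, Slamf9 0.15 ± 0.14 and F11r -0.18 ± 0.10, none of them called. HAMSAB against zero fiber in AD, also used in the choice and sharing the HAMSAB AD libraries, called Slamf8 alone (1.52 ± 0.28), where 0.239% of genes were called. Olfml2b was not called against control with a term for the class of title number (under 2900, 2900 or more, or 000), at -0.79. Slamf8 was not called against zero fiber when only the libraries compared were fitted (1.51). Gnb4 had 4.04 ± 1.06, Slamf9 0.61 ± 0.16, H2-Ob 0.92 ± 0.38, Trim12a 1.48 ± 0.71, Cyp2r1 0.69 ± 0.50, Igsf8 0.53 ± 0.22, Olfml2b -0.35 ± 0.19 and F11r 0.03 ± 0.10 there. Leaving out 1 library at a time, the count called against control ranged from 0 to 6, with 0 without HAMSAB_AD_F replicate 1 and without control_AD_F replicate 2.

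In WT mice, 2 of the 10 genes were called higher on HAMSAB than on zero fiber. Of all tested genes 2.19% were called there, 1.86% higher and 0.322% lower. Spread between single libraries chose the genes, so this count and the adjusted p values are not independent of that choice and are descriptions. Slamf9 averaged 39.2 ± 9.48 CPM on HAMSAB (SD, n = 8) and 24.4 ± 9.97 CPM on zero fiber (SD, n = 6). The HAMSAB WT libraries had 31.5, 23.7, 42.1 and 37.2 CPM in F and 51.9, 50.5, 34.9 and 42.1 CPM in M. The zero fiber WT libraries had 19.2, 26.6, 22.2 and 43.4 CPM in F and 19 and 16 CPM in M, so the groups overlapped through zero_fiber_WT_F replicates 2 and 4 and HAMSAB_WT_F replicate 2. The log2 fold change was 0.81 ± 0.17 (edgeR quasi-likelihood test, adjusted p = 0.00699). H2-Ob averaged 105 ± 63.7 CPM on HAMSAB (n = 8) and 36.3 ± 26.1 CPM on zero fiber (n = 6), with a log2 fold change of 1.61 ± 0.44 (edgeR, adjusted p = 0.0397). Its zero fiber WT libraries had 21.1 to 36.7 CPM and 1 at 88.2 CPM, and its HAMSAB WT libraries had 5 at 104 to 188 CPM and 3 at 29.2 to 41.4 CPM.

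Both WT calls rested on few libraries. Without zero_fiber_WT_M replicate 1 or 2, which leaves 1 library in that group with its spread assumed from the other groups, the adjusted p (edgeR) for Slamf9 was 0.0615 and 0.115. For H2-Ob it was 0.207 and 0.260, and 7 more single omissions ended the call. These were HAMSAB_WT_F replicates 1, 3 and 4 (0.0616, 0.0579 and 0.0505), HAMSAB_WT_M replicate 1 (0.186) and zero_fiber_WT_F replicates 2, 3 and 4 (0.0613, 0.0740 and 0.0775). The number in a library's title is under 2900 for 23 libraries and 2900 or more for 22, which the labels do not call batches. Under 2900, the mean of log2(CPM + 0.5) was higher on HAMSAB WT than on zero fiber WT by 0.88 for Slamf9 and 1.21 for H2-Ob (5 and 4 libraries), and at 2900 or more by 0.37 and 1.71 (3 and 2 libraries).

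The remaining contrasts called none of the 10 genes in edgeR or DESeq2. Counts at an unadjusted p under 0.05 are given beside the share of all 12121 genes under the same limit. HAMSAB against control in WT (0.281% of all genes called) had 3 of the 10 under it, beside 13.3% of all genes. Zero fiber against control in AD (0.0578% called) had 4, beside 10.8%, and in WT (0.00825% called) 1, beside 7.58%. AD against WT over the 3 diets (0.0165% called) had 1, beside 7.28%, which was Igsf8 with a log2 fold change of 0.47 ± 0.13 (edgeR quasi-likelihood test, adjusted p = 0.414). F against M (0.124% called, 0.0495% higher) had none, beside 10.5%. The difference of the HAMSAB effect between AD and WT had 7 of the 10 against control (0% called), beside 5.53%, and 2 against zero fiber (1.08% called), beside 9.46%. Both differences contain the AD contrasts that chose the genes, so nothing is read from these counts. The difference of the zero fiber effect had 1 (0% called), beside 6.17%. Trim12a had 3.99 ± 1.11 for HAMSAB against zero fiber in AD minus WT (edgeR, adjusted p = 0.0623).

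The relatives of the 10 genes did not pass the edgeR test in any of the 11 contrasts. Lists drawn up with earlier results known held 6 other tested SLAM genes, 6 PYHIN genes (the Ifi202b family), 7 MHC class II pathway genes, 7 genes of the Trim5 and Trim30 cluster, 3 G protein beta subunits, 2 vitamin D genes, 4 junctional adhesion genes and 5 tetraspanin-related genes. In HAMSAB against zero fiber in WT, where 2.19% of all genes were called, the median log2 fold change was -0.02 for the SLAM genes, 0.64 for the PYHIN genes and 0.22 for the MHC class II genes, against 0 for all tested genes. Of all 48 listed genes, strain genes included, 14 had an unadjusted p (edgeR) under 0.05 in F against M. The share of all tested genes under that limit was 10.5%. HAMSAB against control in AD had 13, beside 15.3%, and in WT 9, beside 13.3%. HAMSAB against zero fiber in AD had 12, beside 10.6%, and in WT 11, beside 12%. The other 6 contrasts had 2 to 5, beside 5.53% to 10.8%. The lists were drawn up with earlier results known, so nothing is read from these counts. DESeq2 called H2-Ab1 and Rxra in HAMSAB against control in AD, Cd9 in HAMSAB against zero fiber in WT, and none in the other 9. Among Trim12a's relatives, Trim12c had a log2 fold change of 1.98 ± 0.56 for HAMSAB against control in AD (edgeR, adjusted p = 0.0802). A list of 9 tested genes known to differ between inbred strains (Nnt, Apobec3, Mx1, Mx2, Glo1, Nlrp1b, Cd244, Fcgr2b and Wdfy1) had no call by edgeR or DESeq2. Their spread within groups over the trend ran from 0.856 for Fcgr2b to 1.62 for Mx1, within the range of the 10 genes. Mx1 lay below Trim12a, Gnb4, H2-Ob, Ifi202b, Igsf8 and Slamf8 (1.72 to 4.28). It lay above Cyp2r1, Olfml2b, Slamf9 and F11r (0.835 to 1.36). The 10 genes were named for spread, so nothing is read from this. Nnt, the mitochondrial transhydrogenase gene that carries a partial deletion in the C57BL/6J strain, was read in every library, at 15.5 to 98.1 CPM. A count over the whole gene does not check that deletion.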

How the data were processed

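Raw read counts of 46 microglia libraries were used as the authors deposited them, in 1 unnormalized table of 54134 gene symbols. Reads had been processed with STAR 2.5.2b and featureCounts 1.5.2 on GRCm38 (mm10), per the submitters' processing notes, with RNA from an RNeasy Micro kit, per the labels' protocols. The annotation release, the strand setting and whether multi-mapping reads were kept were not given in the sources used here. No pair of libraries held identical counts.

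A single model with 12 group means was fitted to the 46 libraries (R 4.3.3, edgeR 4.0.16, filterByExpr, TMM factors 0.918 to 1.25, quasi-likelihood F test, Benjamini-Hochberg adjustment over 12121 genes). Diet and genotype contrasts weighted both sexes equally. CPM are counts over TMM-adjusted library sizes, and steps and likeness used log2(CPM + 0.5). The test of HAMSAB against control in AD was run on simulated counts whose spread followed edgeR's trend, without on/off levels. That run does not cover genes whose spread lay far above the trend. Alternatives were DESeq2 1.42.0 and its size factors, no filter, and a term for the class of title number (under 2900, 2900 or more, or 000). Others were only the libraries compared, single libraries left out, and both doubted libraries left out. The genes, lists and tests were chosen with earlier results of these data known. Genes were named as members, as neighbours within 5 Mb with an absolute r of at least 0.6, or as the 5 most alike over 46 libraries. H2-Oa, Rps2-ps9, H2-Ab1, Rxra and Cd9 were named after their values were seen. Limits of 0 reads (3 counts over the group) cover counting error only. Values of 1 further gene that overlaps 1 of the 10 are not reported here.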

Additional observations from a re-analysis of the deposited data

Results flagged for a closer look

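In groups of 4 libraries, 20 of 104 sets of values held a library whose gap to its nearest neighbour passed Dixon's 95% critical value of 0.829. Chance alone meets that rule in about 1 in 20 sets of normally distributed values, which low counts are not. A set with reads in 1 library and 0 in the rest always passes. That held for the 3 Ifi202b values and for Gnb4 in zero_fiber_AD_M replicate 1, so the 20 sets cannot be set against that rate. The genes were chosen for such single libraries.

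Gnb4 had 5 of these values. It was at 1.46 CPM in HAMSAB_AD_M replicate 1, against 23.7 to 28 CPM in the other 3 libraries of its group, the only low value among them. It was at 32.5 CPM in zero_fiber_AD_F replicate 4 (others 1.14 to 2.98 CPM), 32.5 CPM in control_AD_M replicate 1 (others 0.538 to 1.48 CPM) and 41.6 CPM in control_WT_F replicate 1 (others 0 to 1.89 CPM). In zero_fiber_AD_M replicate 1 it was at 1.23 CPM, which is 1 read, with 0 in the others.

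Trim12a was at 33.6 CPM in control_AD_F replicate 3 (others 0.687 to 2.81 CPM), 39.1 CPM in zero_fiber_WT_F replicate 1 (others 1.83 to 4.13 CPM) and 57.3 CPM in control_WT_M replicate 3 (others 1.4 to 2.5 CPM). H2-Ob was at 151 CPM in HAMSAB_WT_M replicate 1 (others 29.2 to 41.4 CPM), 81.1 CPM in control_AD_M replicate 4 (others 22.1 to 28 CPM) and 130.0 CPM in control_WT_M replicate 2 (others at most 33.7 CPM). None of these 6 libraries stood apart in both genes.

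Ifi202b stood apart on 1 or 2 reads, at 1.11 CPM in HAMSAB_WT_F replicate 4, 0.27 CPM in control_WT_F replicate 4 and 0.699 CPM in control_WT_M replicate 1, each with 0 in the rest of the group. Olfml2b was at 32.2 CPM in HAMSAB_AD_F replicate 3 (others 18 to 19.3 CPM), the library of its group with no Ifi202b read. Igsf8 was at 46.2 CPM in control_AD_M replicate 1 (others 52.7 to 53.8 CPM) and F11r at 796 CPM in zero_fiber_WT_F replicate 1 (others 975 to 1000 CPM). Cyp2r1 was at 0.972 CPM in HAMSAB_AD_M replicate 1 (others 2.63 to 2.93 CPM), 3.13 CPM in control_AD_F replicate 3 (others 0 to 0.393 CPM) and 30.9 CPM in zero_fiber_AD_M replicate 2, where it is 2 reads (others 1.23 to 3.84 CPM). The control_AD_F library is the one that also stood apart in Trim12a.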

How the results depend on the processing

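No result changed direction under any alternative run. Without a filter on low counts, the number of the 10 genes called was 8 for HAMSAB against control and 7 for HAMSAB against zero fiber in AD, 3 and 4 for the same in WT, 2 for zero fiber against control in AD and 1 in WT. It was 2 for AD against WT, 2 for F against M, and for AD minus WT 4 (HAMSAB against control), 2 (HAMSAB against zero fiber) and 1 (zero fiber against control). That fit called 66 to 505 genes a contrast, so it was less strict throughout. A term for the class of title number gave 2 for HAMSAB against zero fiber in AD and 1 for its AD minus WT difference. With only the libraries compared, HAMSAB against control in AD gave 3 and HAMSAB against zero fiber, AD minus WT, gave 1. Leaving out 1 library at a time gave 0 to 6 for HAMSAB against control in AD, 1 to 2 for HAMSAB against zero fiber in AD, 0 to 2 for it in WT, 0 to 1 for HAMSAB against control in WT and 0 to 1 for HAMSAB against zero fiber, AD minus WT. Slamf8 in HAMSAB against zero fiber in AD had an adjusted p (edgeR) of 0.0615 with only the libraries compared, and Olfml2b against control in AD 0.0506 with the title term. The causes were not tested. DESeq2 called 4 of the 10 for HAMSAB against control in AD, 3 of them shared with edgeR, and gave no adjusted p for 3. The widest steps of Gnb4 (9 libraries above), Slamf8 (6) and Ifi202b (4) held the same number of libraries in 3 alternatives each. That of Igsf8 held 10 in place of 8 with DESeq2 size factors. Without both doubted libraries, H2-Ob had 16 in place of 18 and Trim12a 12 in place of 13, since 2 and 1 of theirs were left out. That of Cyp2r1 ran from 3 to 37 libraries, so it is no measure of a split. No paired analysis was possible because the labels carry no replicate numbers. Depth limits Ifi202b (81 reads) and Cyp2r1 (182 reads) most.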
